A study of Mus musculus with 2 samples.

Results

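Nonclassical monocytes were examined in the blood of db/db and wt mice by droplet single-cell RNA sequencing. They were chosen by a rule on their own counts. A barcode had to pass the limits on quality, hold at least 3 of the 7 genes Ace, Treml4, Cd300e, Adgre4, Eno3, Fcgr4 and Ear2, and carry at least as many unique molecules (UMIs) of these genes as of the 6 classical monocyte genes Ly6c2, Ccr2, F13a1, Fn1, Chil3 and Vcan. It also had to lack every UMI of Cd3d, Cd3e, Cd3g, Cd79a and Cd79b, which mark T and B cells, and to hold at most 1 UMI of the neutrophil genes Retnlg, Cxcr2 and Mmp9. The rule found 168 cells among the 7578 barcodes that passed the limits, and 36612 barcodes were deposited in all. Of these cells, 123 came from the db/db library and 45 from the wt library.

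The db/db mice lack working leptin signalling through a mutation in Lepr and serve as a model of type 2 diabetes with obesity. The wt mice are the wild-type group of the same strain label. Both groups were male C57BLKs/J mice aged 21 weeks, with 3 mice and 200 µl of retro-orbital blood per group, and red cells were lysed before capture. Each group gave 1 library, no deposited file maps a cell to a mouse, and no treatment is named in the labels. Every difference below therefore compares 2 libraries and has no replicate check, no test was made, and every interval covers counting error only.

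Nonclassical monocytes stay mostly inside the vessels, where they crawl along the endothelium and take up debris and immune complexes. In mice they arise largely from classical, Ly6C-high monocytes, and the nuclear receptor Nr4a1 is needed for their survival. They are known for high Cx3cr1, low Ccr2, and an IgG receptor, Fcgr4, that classical monocytes carry at far lower levels.

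The db/db library held 70039773 UMIs in 19912 barcodes and the wt library 50540198 UMIs in 16700 barcodes, and the quality limits kept 3933 db/db and 3645 wt barcodes. Per nonclassical monocyte, the median was 2804 UMIs over 1382 genes in db/db and 3100 UMIs over 1440 genes in wt. Their summed UMIs came to 377067 in db/db and 149840 in wt, so that 1 UMI was worth 2.65 CPM (the UMIs of a gene scaled to a common total) in db/db and 6.67 CPM in wt. Mitochondrial genes took a median of 2.43% of their UMIs in db/db and 2.24% in wt, and haemoglobin genes 1.36% in db/db and 0.829% in wt. The libraries stood apart in the non-coding transcript Gm42418, at a median of 0.535% of UMIs in db/db members and 1.75% in wt members. They shared 91 barcode sequences, 6 of them kept in both, and none was a nonclassical monocyte in both.

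The genes of the rule give the level of the signature, and they are described here without a comparison because they chose the cells. Ear2, a ribonuclease of the eosinophil-associated family, stood at 1443 CPM in db/db and 1829 CPM in wt members. Ace, the angiotensin-converting enzyme, stood at 894 CPM in db/db and 828 CPM in wt, and Fcgr4, an activating IgG receptor, at 891 CPM in db/db and 1061 CPM in wt. Adgre4, an adhesion receptor related to F4/80, had 560 CPM in db/db and 647 CPM in wt, and Treml4, a TREM-like receptor, 400.5 CPM in db/db and 514 CPM in wt. Eno3, the enolase isoform best known from muscle, had 334 CPM in db/db and 521 CPM in wt. Cd300e, an activating receptor of the CD300 family, had 209.5 CPM in db/db and 400.4 CPM in wt. UMIs of Cd300e were found in 54 of 123 db/db and 27 of 45 wt members. Its share in B cells was 0.0813% in db/db and 0.0868% in wt.

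The threshold of 3 genes cut a thin edge. In db/db, 13 members held exactly 3 of the 7 genes, 28 held 4, 31 held 5, 31 held 6 and 20 held all 7. In wt, 3 members held 3 genes, 2 held 4, 15 held 5, 15 held 6 and 10 held all 7. Just outside the rule, 5 db/db barcodes and 1 wt barcode held 2 of the genes but met every other condition. A further 18 db/db and 2 wt barcodes held at least 3 of the genes with a sum below that of the classical genes; 1 wt barcode had equal sums of 4 UMIs and is a member by the rule. At least 1 UMI of a classical gene was present in 66 db/db and 19 wt members.

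The label was checked on genes that the rule did not use. Csf1r, the receptor for the growth factor that monocytes depend on, was not part of the rule and was found in 91.1% of members in both libraries, or 71.4% of db/db and 72.7% of wt members after thinning. It was seen in 0.610% of db/db and 0.391% of wt B cells, whose median depth was 2193 UMIs in db/db and 2331 UMIs in wt. The T cell genes Trac, Trbc1, Trbc2, Cd4, Cd8a and Cd8b1 were at 0 in the members of both libraries. So were the neutrophil genes Ly6g, Camp, Ngp, Ltf and Lcn2. The neutrophil genes S100a8 and S100a9 together had 7 UMIs in 7 db/db members and 2 UMIs in 2 wt members. The rule had already removed barcodes with Cd3 UMIs or with more than 1 UMI of Retnlg, Cxcr2 and Mmp9. Low counts of T cell and neutrophil genes were thus largely set by the rule and are no separate check of the label. The genes of the rule were detected in members by construction.

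**Figure D1:**
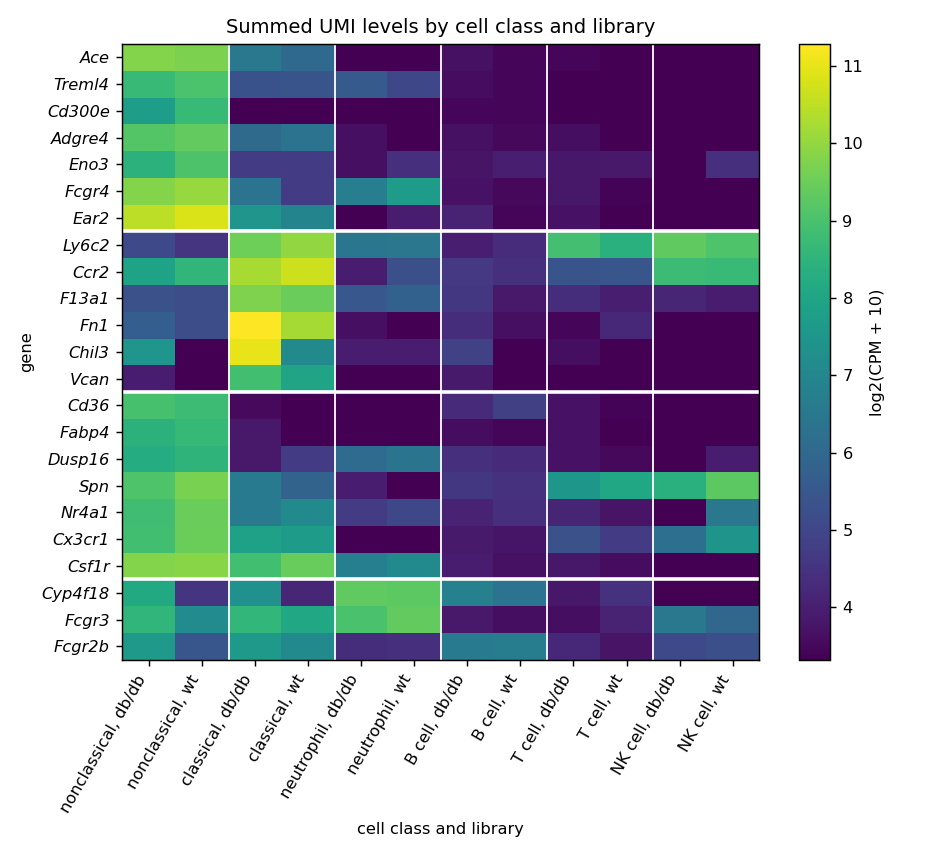
Level of each gene (rows) in the summed UMIs of 6 cell classes (columns, db/db left of wt in each class), as the log2 of CPM plus 10. From the top, white lines part the 7 genes of the rule, the 6 classical genes, 7 further monocyte genes and the genes Cyp4f18, Fcgr3 and Fcgr2b. Cd36 and Fabp4 are high in nonclassical monocytes and near 0 in classical monocytes, and Cyp4f18 is high in db/db and low in wt in both monocyte classes but similar in neutrophils of both libraries.

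The share of nonclassical monocytes was larger in the db/db library. They made up 3.13% of kept barcodes in db/db, with an exact Clopper-Pearson 95% interval of 2.61% to 3.72%, and 1.23% in wt, with an interval of 0.902% to 1.65%. The ratio of the shares was 2.53 (exact conditional interval 1.79 to 3.65). Classical monocytes, chosen by the mirrored rule, numbered 115 in db/db and 21 in wt and made up 2.92% of kept barcodes in db/db and 0.576% in wt, a ratio of 5.08 (interval 3.17 to 8.51). Of both monocyte classes together, nonclassical cells were 51.7% in db/db (interval 45.1% to 58.2%) and 68.2% in wt (interval 55.6% to 79.1%). The ratio of these shares was 0.758, and its interval of 0.535 to 1.09 included 1. The classical count hung on the marker threshold, most of all in wt. With at least 2 marker genes in place of 3, classical monocytes numbered 136 in db/db and 44 in wt. Nonclassical monocytes then numbered 128 in db/db and 46 in wt.

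Most kept barcodes were B cells, at 62.6% in db/db and 63.2% in wt, so a share of all barcodes also moved with the other classes. Neutrophils were 6.56% of kept barcodes in db/db and 2.69% in wt, and T cells were 7.14% in db/db and 11.4% in wt. Among kept barcodes with no UMI of the Cd3 and Cd79 genes, nonclassical monocytes were 13.9% in db/db (interval 11.7% to 16.3%) and 10.3% in wt (interval 7.59% to 13.5%). That ratio was 1.35, and its interval of 0.953 to 1.95 included 1. A mitochondrial limit of 5% instead of 10% kept 3196 db/db and 1975 wt barcodes, with 115 db/db and 44 wt members, and the ratio of the shares of kept barcodes became 1.62. How far the red-cell lysis and the capture set these shares was not tested.

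**Figure D2:**
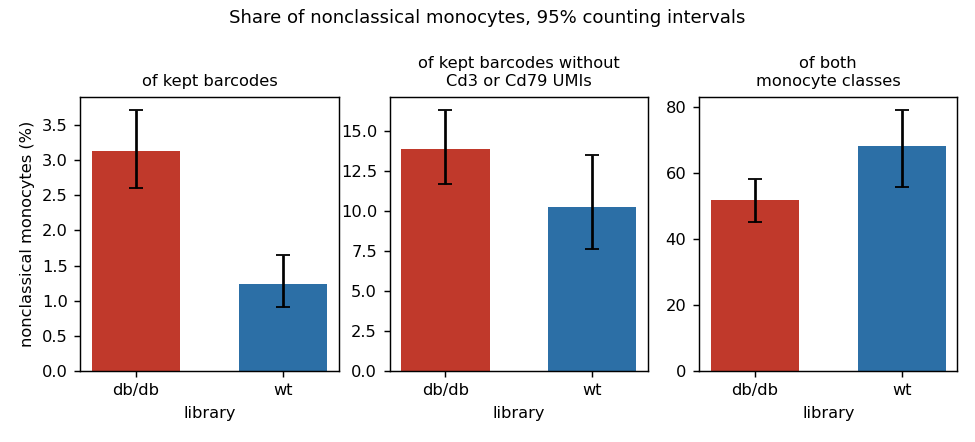
Share of nonclassical monocytes (percent, each axis from 0) in the db/db library (left bar) and the wt library (right bar), of 3 denominators. Bars are the 1 library of each genotype and lines are exact 95% counting intervals; the db/db share is higher of kept barcodes (3.13% against 1.23%) and lower of both monocyte classes (51.7% against 68.2%).

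Nonclassical monocytes were next set against the classical monocytes of the same library, over genes that the rule did not use. A gene was counted where the nonclassical and classical cells together held at least 20 UMIs, and past 2-fold means a log2 ratio of CPM plus 10 of at least 1 in size. In db/db, 298 of 5739 genes (5.19%) were past 2-fold higher in nonclassical cells and 261 (4.55%) lower. In wt, 283 of 2374 genes (11.9%) were higher and 180 (7.58%) lower. Of the 2370 genes measured in both libraries, 109 were past 2-fold higher in both and 51 lower in both. The same cells' counts chose the classes, so these values describe what came along with the rule.

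The highest genes by the naming rule were Cd36 and Fabp4. Cd36, a scavenger receptor and fatty acid transporter, had 184 UMIs (488 CPM) in nonclassical and 1 UMI in classical db/db cells, and 65 UMIs (434 CPM) in nonclassical and 0 UMIs in classical wt cells. Fabp4, a fatty acid binding protein of macrophages and adipocytes, had 127 UMIs (337 CPM) in nonclassical and 3 in classical db/db cells, and 59 UMIs (394 CPM) in nonclassical and 0 in classical wt cells. Both genes were nearly absent from classical monocytes in both libraries. Dusp16, a phosphatase of JNK and p38 kinases, had 297 CPM in nonclassical and 4.54 CPM in classical db/db cells, and 354 CPM in nonclassical and 16.0 CPM in classical wt cells. The anti-apoptotic Bcl2a1b had 318 CPM in nonclassical and 19.7 CPM in classical db/db cells, and 440.5 CPM in nonclassical and 16.0 CPM in classical wt cells. The log2 ratio nearer 0 of the 2 libraries was 2.53 for Spn, which encodes the sialoglycoprotein CD43, and 2.26 for Nr4a1. It was 2.77 for Cd300ld, 2.57 for Pglyrp1, a peptidoglycan recognition protein, 2.55 for Stap1, 2.23 for Smc6, 2.13 for the receptor kinase Grk3 and 2.08 for Pilra, an inhibitory receptor.

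The lowest genes by the naming rule were S100a10 and Vim. S100a10, the partner of annexin A2, had 98.1 CPM in nonclassical and 787 CPM in classical db/db cells, and 73.4 CPM in nonclassical and 623 CPM in classical wt cells, with a log2 ratio of at most -2.88 in both libraries. Vim, which encodes the intermediate filament vimentin, had 692 CPM in nonclassical and 3786 CPM in classical db/db cells, and 340.4 CPM in nonclassical and 2294 CPM in classical wt cells. The log2 ratio nearer 0 was -2.43 for Vim, -2.32 for Slfn5, -2.18 for Ms4a4c, -1.73 for Crip1, -1.59 for Ahnak, -1.49 for S100a6 and -1.41 for Tspo. Of the list of nonclassical identity genes beyond the rule, 16 of 23 measured were past 2-fold higher and 0 lower in the db/db library (median log2 ratio 1.94), and 19 of 23 were higher and 1 lower in wt, with a median of 2.19. The list of classical genes beyond the rule had 1 higher and 15 lower of 23 measured in db/db, with a median of -1.22, and 3 higher and 9 lower of 20 measured in wt, with a median of -0.83.

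db/db and wt nonclassical monocytes were then compared gene by gene. With at least 20 UMIs in the members of both libraries together, 3961 genes were measured, of which 161 (4.06%) were past 2-fold higher in db/db and 98 (2.47%) past 2-fold lower. The median log2 ratio was -0.01. Scaling by TMM in place of the UMI sum gave 194 higher and 68 lower and moved that median to 0.08. The differences fell into 2 kinds, those found across many cells and those held by a few. To show this, many of the genes below come with the number of members that held a UMI of the gene, though not all.

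**Figure D3:**
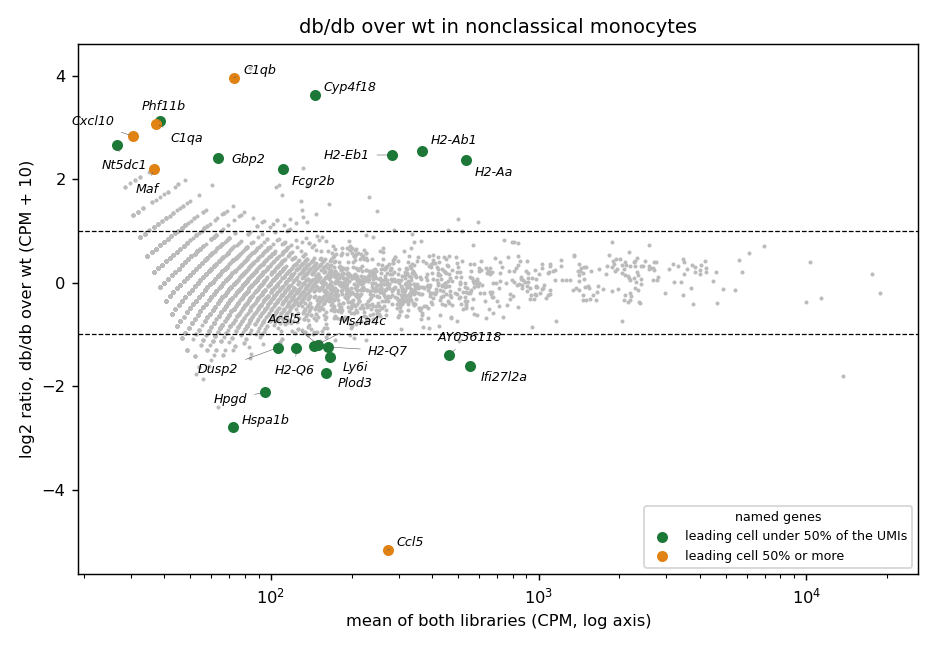
Log2 ratio of db/db over wt (CPM plus 10, vertical axis) against the mean CPM of both libraries (horizontal log axis) for the genes measured in nonclassical monocytes, each point a gene; dashed lines mark 2-fold. Coloured points are the 12 highest and 12 lowest genes by the naming rule, orange where a single cell held 50% or more of the UMIs in the higher library; Cyp4f18 at 3.63 is spread over cells and Ccl5 at -5.17 is not.

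Among the genes taken by the naming rule, which leaves out the genes that chose the cells, Cyp4f18 had the highest log2 ratio of those not held mostly by 1 cell. It encodes the mouse cytochrome P450 that inactivates leukotriene B4, a neutrophil attractant, by hydroxylation. It had 105 UMIs in 63 of 123 db/db members (278.5 CPM, interval 228 to 337) and 2 UMIs in 2 of 45 wt members (13.3 CPM, interval 1.62 to 48.2). The ratio was 20.9, with a counting interval of 5.63 to 175, and no db/db cell held more than 5 of the UMIs. After thinning to 1500 UMIs it was seen in 31.2% of db/db and 2.27% of wt members. In T cells, of median depth 3005 UMIs in db/db and 3342 UMIs in wt, its UMIs were found in 1.42% of db/db and 2.16% of wt cells. The gap between the libraries was seen in both monocyte classes and not in neutrophils. Classical monocytes had 151 CPM in db/db and 7.99 CPM in wt, which is 1 UMI over the 21 wt cells. Neutrophils had 642 CPM in db/db and 609 CPM in wt, and B cells 101 CPM in db/db and 71.0 CPM in wt. The gene lies at chr8:71988482-72009626 on the minus strand of GRCm38, which is the build mm10 of the counts.

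Among the low-affinity Fc gamma receptors, Fcgr2b and Fcgr3 were higher in db/db nonclassical monocytes. Fcgr2b (chr1:170958617-170976547, minus strand), Fcgr4 (chr1:171018920-171029761, plus strand) and Fcgr3 (chr1:171051174-171064935, minus strand) are neighbours on chromosome 1. Fcgr2b encodes the only inhibitory member, and Fcgr3 and Fcgr4 encode activating receptors that signal through the common chain Fcer1g. Fcgr2b had 71 UMIs in 36 of 123 db/db members (188 CPM, interval 147 to 238) and 5 UMIs in 5 of 45 wt members (33.4 CPM, interval 10.8 to 77.9), a ratio of 5.64 (interval 2.31 to 17.9) and a log2 ratio of 2.19. Fcgr3 had 138 UMIs in 77 db/db members (366 CPM, interval 307 to 432) and 20 UMIs in 13 wt members (133 CPM, interval 81.5 to 206), a ratio of 2.74 (interval 1.71 to 4.63) and a log2 ratio of 1.39. Both receptors were therefore higher in db/db, outside counting error. Fcgr3 UMIs lay in many cells, while 6 db/db cells held 33 of the 71 Fcgr2b UMIs (46.5%). The leading Fcgr2b cell held 9 of them and also 309 UMIs of the MHC class II list described below. Without the leading cell of each library, the log2 ratio of Fcgr2b was 2.24. That setting took away 1 of the 5 wt UMIs. It also moved the median log2 ratio of all measured genes from -0.01 to 0.09. After thinning, Fcgr3 was seen in 40.2% of db/db and 13.6% of wt members, and Fcgr2b in 17.9% of db/db and 2.27% of wt members. Fcgr3 was seen in 0.772% of db/db and 0.391% of wt B cells, which lack the receptor, and Fcgr2b in 2.49% of db/db and 0.721% of wt T cells.

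Fcgr4 helped to choose the cells, so its level is not set against theirs. The high-affinity receptor Fcgr1, on another chromosome, had 53.0 CPM in db/db and 107 CPM in wt, with a ratio interval of 0.245 to 1.03. The common chain Fcer1g had 3583 CPM in db/db and 3831 CPM in wt, a log2 ratio of -0.10. Of the 16 genes listed for Fc receptors and their signalling, all measured, Fcgr2b and Fcgr3 were past 2-fold higher and 0 lower, against 4.06% higher and 2.47% lower over all measured genes, and the list's median log2 ratio was -0.07. The kinase Syk, which acts below these receptors, had a log2 ratio of -0.64. In classical monocytes the log2 ratio of db/db over wt was 0.51 for Fcgr2b and 0.49 for Fcgr3, and neutrophils had 506 CPM of Fcgr3 in db/db and 654 CPM in wt. Whether the gap is larger in nonclassical than in classical monocytes was not tested.

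The promoters of the 3 neighbouring receptors are shown because they are the low-affinity IgG receptor genes described above. Each runs from 250 bases before to 50 bases after the RefSeq start on the gene's strand in GRCm38.p6, at chr1:170976022-170976321 for Fcgr2b, chr1:171018676-171018975 for Fcgr4 and chr1:171059354-171059653 for the first of 2 starts of Fcgr3. Capitals mark GAGGAA or its reverse complement, TTCCTC, and in Fcgr4 the longer match GAGGAAGT, whose reverse complement is ACTTCCTC. GAGGAA is a longer form of GGAA, the core bound by ETS factors such as PU.1, a regulator of myeloid genes. GGAA alone is neither marked nor counted.
Fcgr2b: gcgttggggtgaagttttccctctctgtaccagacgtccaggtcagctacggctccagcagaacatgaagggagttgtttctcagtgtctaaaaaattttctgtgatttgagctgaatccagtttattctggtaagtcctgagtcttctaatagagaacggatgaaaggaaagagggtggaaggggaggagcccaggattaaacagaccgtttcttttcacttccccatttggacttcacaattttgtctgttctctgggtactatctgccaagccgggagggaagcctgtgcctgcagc
Fcgr4: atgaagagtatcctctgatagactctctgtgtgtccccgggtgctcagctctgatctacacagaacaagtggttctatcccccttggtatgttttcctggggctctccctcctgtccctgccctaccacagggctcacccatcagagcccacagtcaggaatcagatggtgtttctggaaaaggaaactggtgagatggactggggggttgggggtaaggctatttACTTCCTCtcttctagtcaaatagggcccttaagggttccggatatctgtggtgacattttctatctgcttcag
Fcgr3: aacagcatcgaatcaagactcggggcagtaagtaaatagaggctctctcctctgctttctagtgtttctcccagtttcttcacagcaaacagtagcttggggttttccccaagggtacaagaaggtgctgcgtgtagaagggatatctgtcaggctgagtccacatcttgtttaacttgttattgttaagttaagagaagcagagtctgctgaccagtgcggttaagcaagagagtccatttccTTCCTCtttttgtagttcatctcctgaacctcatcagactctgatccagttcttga
GAGGAA was found on either strand in 28.3% of the 32851 promoters of the same length in the RefSeq table, and GAGGAAGT, which contains it, in 3.20%. Fcgr4 held 1 match to the longer motif, Fcgr3 held 1 match to GAGGAA, and Fcgr2b held neither in this window, though it holds GGAA. Among the other genes of the rule, Adgre4 also held the longer motif. A match describes letters and shows no binding.

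Genes that glucocorticoids induce lay mostly on the higher side. Of the 14 listed, 9 were measured, 4 were past 2-fold higher and 0 lower, where 4.06% of all measured genes were higher. The median log2 ratio was 0.84, against -0.01 over all measured genes. With each member thinned to 1500 UMIs, 6 were measured, 1 was past 2-fold higher and the median was 0.62. Txnip, an inhibitor of thioredoxin that also limits glucose uptake, had 265 UMIs in 103 db/db members (703 CPM) and 44 UMIs in 24 wt members (294 CPM), a ratio of 2.39 (interval 1.73 to 3.37). It was found in 69.6% of db/db and 29.5% of wt members after thinning, so the gap ran through most of the cells. Ddit4, which restrains mTORC1, had 215 CPM in db/db and 80.1 CPM in wt, a ratio of 2.68 (interval 1.45 to 5.40). Fkbp5, a co-chaperone of the glucocorticoid receptor, and Klf9, a transcription factor, each had 29 UMIs in db/db and 2 UMIs in wt, a ratio of 5.76 (interval 1.46 to 49.8). Tsc22d3, also called GILZ, had 435 CPM in db/db and 247 CPM in wt, a log2 ratio of 0.79. Dusp1 and Ccnd3 had log2 ratios of -0.37 and -0.14. In classical monocytes, 3 of 8 measured genes of the list were past 2-fold higher, where the background was 6.21%, and Txnip had a log2 ratio of 0.05.

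Further genes were higher in db/db, in 16 to 79 of the 123 members. Phf11b had 29 UMIs in 25 db/db members and 0 in wt. It was 3.84-fold higher with the wt count of 0 read as 3 UMIs in the summed members, and its exact ratio interval began at 2.93. Nt5dc1 had 20 UMIs in 16 db/db members and 0 in wt, 2.65-fold higher on the same reading, and its interval began at 1.96. Irf8, a transcription factor of the monocyte lineage, had 94 UMIs in 57 db/db members (249 CPM) and 12 UMIs in 10 wt members (80.1 CPM), a ratio of 3.11 (interval 1.70 to 6.24). In classical monocytes its log2 ratio was -1.18. Cebpa, a myeloid transcription factor, had 26 UMIs in 23 db/db members and 2 UMIs in 2 wt members, a ratio of 5.17 (interval 1.29 to 44.9). Slc12a2, a sodium, potassium and chloride cotransporter, had 618 CPM in 79 db/db members and 300.3 CPM in 22 wt members, a log2 ratio of 1.02. Insr, the insulin receptor, had 20 UMIs in 17 db/db members and 1 UMI in wt, a ratio of 7.95 (interval 1.27 to 329). Insr was, with Pik3r1 at 1.00, past 2-fold higher among 15 measured genes of insulin and leptin signalling, whose median was 0.13. Over all measured genes, 4.06% were higher. The list count was 0 after thinning, with 50 CPM added and with at least 50 UMIs. It was also 0 without platelet or NK barcodes, without members with markers of other cells and without members over 2 times the median UMIs. In the other settings it was 1 or 2. Lepr had 0 UMIs in the members of both libraries.

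The classical gene Chil3, a chitinase-like protein, belongs to the rule and is given as a description. It had 63 UMIs in 26 db/db members and 0 UMIs in wt members, a count of 0 that allows up to 3 UMIs there. Classical monocytes had 2087 CPM in db/db and 128 CPM in wt. Ccr2, the receptor for CCL2, was detected in 42.3% of db/db and 40.0% of wt members, at 233 CPM in db/db and 367 CPM in wt. Chil3 UMIs were also found in 0.447% of db/db and 0% of wt B cells.

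The class II genes of the MHC, whose products show peptides to helper T cells, had the highest median of all lists, and a few cells held most of it. Of 11 listed genes, 5 were measured, 4 were past 2-fold higher and 0 lower in the db/db cells, and the median log2 ratio was 2.37. H2-Aa had 341 UMIs (904 CPM) in db/db and 25 UMIs (167 CPM) in wt, H2-Ab1 238 UMIs (631 CPM) in db/db and 15 UMIs (100.1 CPM) in wt, and H2-Eb1 184 UMIs (488 CPM) in db/db and 12 UMIs (80.1 CPM) in wt. Yet H2-Aa was found in 26 of 123 db/db members (21.1%) and 10 of 45 wt members (22.2%), and after thinning in 17.0% of db/db and 15.9% of wt members. The shares of cells with the gene lay close together, while its summed level did not. Neutrophils, which lack class II, showed H2-Aa in 5.81% of db/db and 8.16% of wt cells at median depths of 1401 UMIs in db/db and 1828 UMIs in wt.

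The class II list held 1748 UMIs in db/db members and 280 in wt members. In db/db the first cell held 319 of them, the next 309 and 148, and the 6 leading cells together held 1156 UMIs (66.1%). In wt the first cell held 52 and the second 25, and the 6 leading cells together held 154 UMIs (55.0%). The median cell held 1 UMI of the list in db/db and 2 in wt, and 8 db/db members but 0 wt members held at least 60. Those 6 leading cells had 4796 to 7938 UMIs in all, above the db/db median of 2804, and held 3 to 7 of the 7 genes of the rule. With every member weighed the same the list's median log2 ratio was 1.65. Without the 10 deepest members of each library, which left 113 db/db and 35 wt members, it was 1.17. In classical monocytes it was -0.67.

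The leading cells overlapped with the few that held complement C1q, a product of tissue macrophages. C1qa and C1qb had 28 and 55 UMIs in 3 db/db members and 0 in wt. The cell with the most class II UMIs held 56 of these 83 UMIs, another of the 6 leading cells held 9, and the remaining 18 lay in a cell outside those 6. Without members that held at least 2 markers of tissue macrophages, dendritic cells, proximal tubule, platelets or NK cells, 96 db/db and 39 wt members remained, C1qa and C1qb were at 0, and the class II median was 1.90. Maf, a transcription factor of macrophages, had 25 UMIs in 9 db/db members, 14 of them in 1 cell, and 1 UMI in wt. Cxcl10, an interferon-induced chemokine, had 23 UMIs in db/db, all in 1 cell, and 0 in wt. Of 15 complement genes, 8 were measured, and C1qa and C1qb were the 2 past 2-fold higher, with a list median of 0.50 that is the same with both set at their lower bounds. The median was -0.19 without members with markers of other cells and 0.04 after thinning, with 0 genes past 2-fold in either setting.

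Markers of other cells were counted in the members. Among tissue macrophage markers, 5 of 8 were seen in db/db, with 141 UMIs over 33 members, and 1 of 8 in wt, with 24 UMIs over 16 members, while Cd163, Vsig4 and Timd4 were at 0 in both. Among dendritic cell markers, Flt3, Xcr1, Clec9a, Cd209a, Zbtb46 and Ccr7 were at 0 in both libraries, and the remaining 10 UMIs lay in 5 db/db members. The B cell marker Ms4a1 was at 0 in db/db members, as Cd79a and Cd79b were by rule. Platelet markers reached 448 CPM in 44 db/db members and 187 CPM in 9 wt members. The part of these cells in the class II values was not tested beyond the values above.

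**Figure D4:**
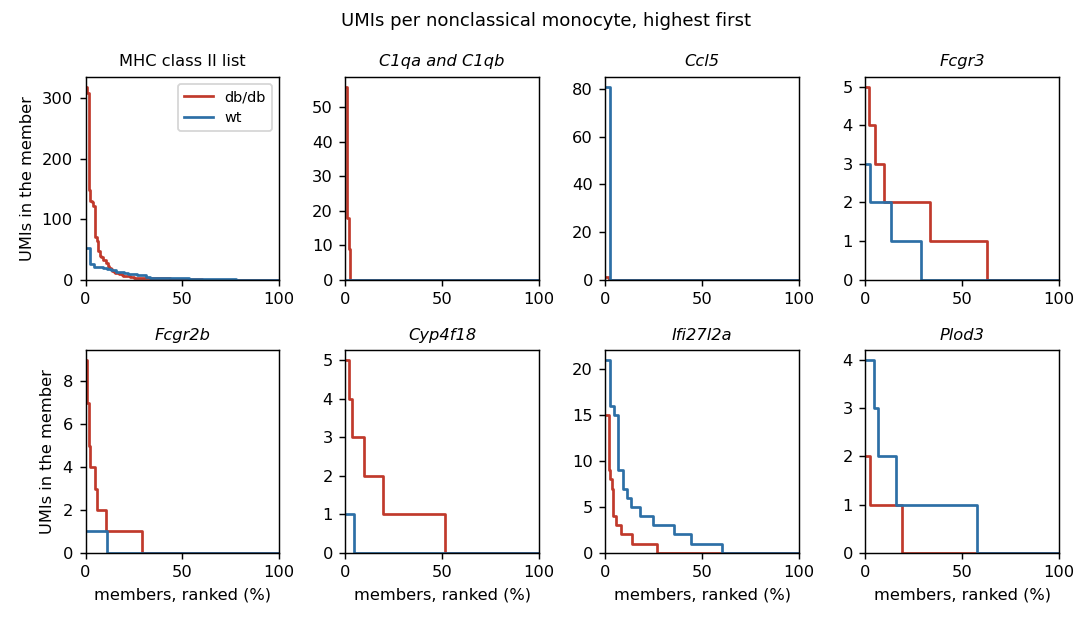
UMIs per nonclassical monocyte (vertical axis) with the cells of each library ranked from the highest (horizontal axis, percent of members; red db/db, 123 cells; blue wt, 45 cells). The class II list, C1qa with C1qb, and Ccl5 rise to a few cells, while Fcgr3, Fcgr2b and Cyp4f18 reach further along the axis in db/db and Ifi27l2a and Plod3 further in wt.

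Ccl5 was the lowest gene, and it too rested on a single cell. The chemokine, made mainly by NK and T cells, had 2 UMIs in 2 db/db members and 81 UMIs in 1 wt member, a log2 ratio of -5.17. That wt member also held 7 of 8 NK cell markers. Without the leading cell of each library no wt UMI remained, and the log2 ratio was 0.34. That value rests on fewer than 2 db/db UMIs and shows no opposite direction. Genes that were lower in db/db over many cells were Ifi27l2a and Plod3. Ifi27l2a, an interferon-induced gene, had 101 UMIs in 33 of 123 db/db members (268 CPM) and 126 UMIs in 27 of 45 wt members (841 CPM), a ratio of 0.319 (interval 0.243 to 0.417). It was lower in db/db in other classes as well, at 824 CPM in db/db and 2014 CPM in wt classical monocytes, 139 CPM in db/db and 1809 CPM in wt neutrophils, and 225 CPM in db/db and 540 CPM in wt B cells. Plod3, a lysyl hydroxylase that modifies collagen, had 26 UMIs in 23 db/db members (69.0 CPM) and 38 UMIs in 26 wt members (254 CPM), a ratio of 0.272 (interval 0.159 to 0.460). Its log2 ratio was -1.74 here and -0.32 in classical monocytes.

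Hspa1b, an inducible Hsp70 gene with a near-identical neighbour, Hspa1a, had 4 UMIs in 4 db/db members and 20 UMIs in 11 wt members, a log2 ratio of -2.80. Reads of this pair may be split or lost between the copies. Hspa1a had 2 UMIs in db/db and 11 in wt. Hpgd, which breaks down prostaglandins, had 11 UMIs in 7 db/db members and 24 UMIs in 10 wt members, a ratio of 0.182 (interval 0.0805 to 0.386). The remaining low genes had log2 ratios of -1.44 for Ly6i, -1.26 for the phosphatase Dusp2, -1.23 for Ms4a4c and -1.20 for Acsl5, an acyl-CoA synthetase. AY036118, a non-coding transcript, had -1.40, with 31 of its 101 wt UMIs in 1 cell, and without the leading cell of each library it had -0.995, short of 2-fold. It was also lower in db/db B cells, at 440.2 CPM in db/db and 954 CPM in wt, but not in T cells, at 1131 CPM in both.

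MHC class I genes lay on both sides of 0. Of 14 measured, 0 were past 2-fold higher and 2 lower, against 4.06% higher and 2.47% lower over all measured genes, with a median of -0.16. H2-Q6 and H2-Q7, a pair of similar nonclassical class I genes whose reads can be shared, had log2 ratios of -1.27 and -1.24. The classical H2-K1 had 1528 CPM in db/db and 2576 CPM in wt, and H2-D1 had 6460 CPM in db/db and 4785 CPM in wt, so these 2 main genes lay in opposite directions, each outside counting error. B2m, the shared light chain, had 3238 CPM in db/db and 4291 CPM in wt.

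Interferon-response genes were likewise mixed. Of 17 measured, 2 were past 2-fold higher and 1 lower, against 4.06% higher and 2.47% lower over all measured genes, with a median of 0.06. After thinning, 9 were measured, with 0 higher and 1 lower. Gbp2 and Ifi47, GTPases induced by interferon gamma, were the higher pair. Gbp2 had 43 UMIs in 17 db/db members and 2 UMIs in 2 wt members, a ratio of 8.54 (interval 2.23 to 72.8), and Ifi47 had 38 UMIs in db/db and 5 in wt, a ratio of 3.02 (interval 1.19 to 9.83). In classical monocytes the list's median was -0.76, with 1 of 26 genes past 2-fold higher and 10 lower, where 3.76% of all genes were lower. The inflammatory list had a median of 0.05 over 12 measured genes, the same with Cxcl10 at its lower bound, and Il1b, the interleukin-1 beta gene, had 141 CPM in db/db and 260.3 CPM in wt, a log2 ratio of -0.84.

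Most identity genes differed by less than 2-fold between the libraries, and more of them lay on the lower side in db/db. Of 24 measured identity genes beyond the rule, 1 was past 2-fold higher (Slc12a2) and 1 lower (Pecam1), with a median of -0.15. The log2 ratio was below 0 for 16 of them and above 0 for 8. Nr4a1 had 451 CPM in db/db and 694 CPM in wt, with a ratio interval of 0.506 to 0.837. Cx3cr1, the fractalkine receptor, had 461 CPM in db/db and 714 CPM in wt, with an interval of 0.505 to 0.830, and Spn had 536 CPM in db/db and 814 CPM in wt, with an interval of 0.523 to 0.831. These 3 genes were each lower in db/db by less than 2-fold but outside counting error. Csf1r had 883 CPM in db/db and 928 CPM in wt, and Cebpb, a transcription factor that drives these cells, 2246 CPM in db/db and 2069 CPM in wt, with intervals that included 1. Pecam1, an adhesion molecule, rested on 14 UMIs in db/db and 13 in wt.

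Classical genes beyond the rule had a median of -0.30 over 20 measured, with Irf8 and Cebpa past 2-fold higher and Ifi27l2a, Ly6i, Ms4a4c and Clec4e lower. The immediate early and stress list had a median of -0.33 over 14 measured genes, of which 0 were higher and 1, Hspa1b, was lower. No gene was past 2-fold in either direction among 17 measured for adhesion and patrolling (median -0.18), 18 for lipid uptake and efflux (0.12), 12 for glycolysis (0.17), 27 for oxidative phosphorylation (-0.11), 17 for lysosome and cathepsins (0.22), 15 for NADPH oxidase and antioxidants (-0.15), 14 for survival and apoptosis (-0.04) and 5 S100 genes (0.11). Within the lipid list, Apoe, the lipid carrier of macrophages, had 8606 CPM in db/db and 5279 CPM in wt, a ratio of 1.63 (interval 1.51 to 1.76), and Cd36 had 488 CPM in db/db and 434 CPM in wt.

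**Figure D5:**
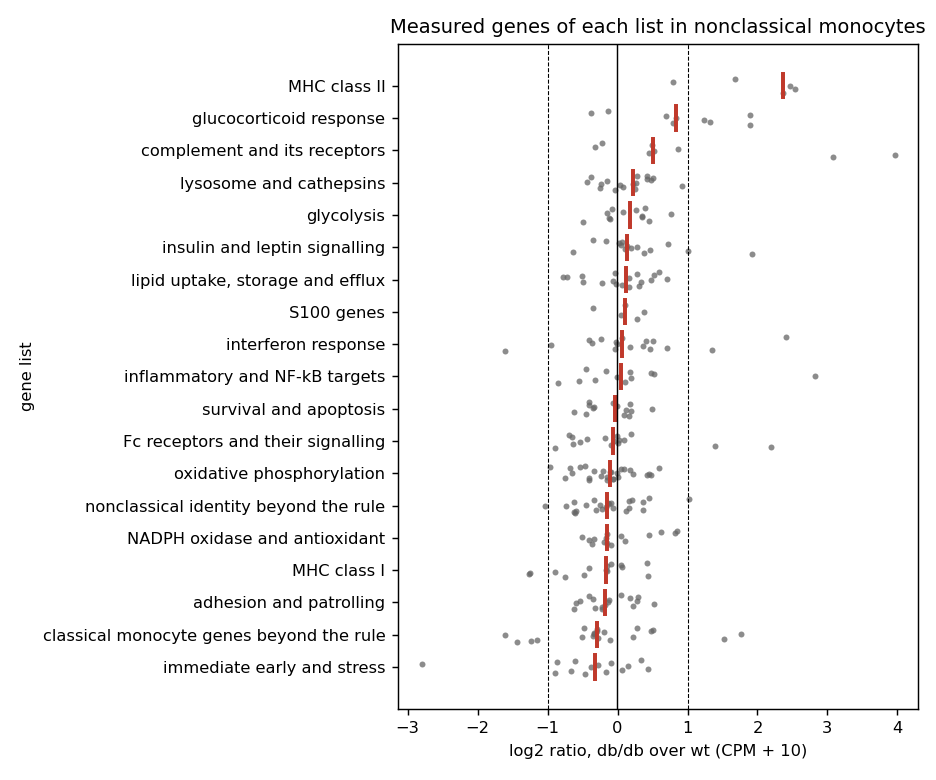
Log2 ratio of db/db over wt (CPM plus 10, horizontal axis) of the measured genes of 19 lists (rows) in nonclassical monocytes; each grey point is a gene, red bars are list medians, the solid line is the median of all measured genes at -0.01 and dashed lines mark 2-fold. The class II list (2.37) and the glucocorticoid list (0.84) lie furthest to the right, the complement list is at 0.50, and the other medians lie between -0.33 and 0.22.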

How the data were processed

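Blood of db/db and wt mice gave 1 library each, from 3 pooled male mice per genotype. Per the labels' protocols, libraries followed the 10x Genomics single-cell 3′ v2 protocol. Per the submitters' processing notes, the authors used Cell Ranger 3.0.2 and build mm10; the gene annotation is not given in the sources used here. The deposited values are raw counts, whole-number UMIs per gene (31053 genes) and barcode, with no fewer than 500 UMIs per barcode. UMIs collapse PCR copies; reads reach genes mainly at their 3′ ends, so near-identical genes may share or lose reads.

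Barcodes with 200 to 6000 genes, under 10% mitochondrial and under 20% haemoglobin UMIs were kept, and the marker rule was applied. No doublet caller was run; the lymphocyte and neutrophil conditions stood in for it. B, T, NK and neutrophil classes came from their own marker genes. Within each class, the UMIs of a library were added up and scaled to CPM. CPM carry exact Poisson 95% intervals, and ratios an exact conditional binomial interval. Log2 ratios use CPM plus 10. Where a gene had 0 UMIs, folds were taken against 3 UMIs. Thinning drew 1500 UMIs per cell and left out shallower cells (11 db/db and 1 wt members).

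Genes named between genotypes were the 12 highest and 12 lowest with at least 20 UMIs in the higher library and a ratio interval that excluded 1. Between classes, the 12 highest and 8 lowest had at least 50 UMIs in the higher class of each library. Rule, guard, mitochondrial, ribosomal protein, haemoglobin, sex-linked and unnamed genes were left out of naming, and genes of the lists were named beside it. The members and the gene lists were chosen with earlier results of these data known. Positions came from GENCODE M21 and promoters from RefSeq GRCm38.p6.

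Alternatives changed the filters, the scaling (TMM in edgeR 4.0.16, R 4.3.3), the pseudocount, the weight of cells and the members. Python 3.11.15, pandas 2.3.3, scipy 1.17.1 and numpy 2.4.6 were used, and ratio intervals were tested on simulated data. Values of some genes of the lists are not reported here.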

Additional observations from a re-analysis of the deposited data

Results flagged for a closer look

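Ccl5 differed between the libraries in opposite directions in the 2 monocyte classes: the log2 ratio of db/db over wt was -5.17 in nonclassical monocytes and 2.06 in classical monocytes. The difference was not tested. All 81 wt UMIs lay in 1 nonclassical cell, and the 21 UMIs of db/db classical monocytes lay in 2 of 115 cells.

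Barcodes that met the marker rule but held 20% or more haemoglobin UMIs were outside every comparison. They made up 0.176% of all db/db barcodes (35 of 19912) and 0.0599% of all wt barcodes (10 of 16700), a ratio of 2.94 (interval 1.42 to 6.65). Their median depth was 6008 UMIs in db/db and 5416 UMIs in wt, above that of the members.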

How the results depend on the processing

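No paired analysis was possible because each genotype has 1 library. The ratio of the shares of kept barcodes moved outside its interval only with a mitochondrial limit of 5%, to 1.62, among the 10 alternatives tried for it; the ratio of the shares of monocytes stayed inside its interval in the 9 tried for it. Counts past 2-fold moved by more than 1.5 times with the pseudocount and the UMI minimum. Against 161 genes higher in db/db, there were 31 with 50 CPM added, 40 with at least 50 UMIs, 673 with at least 1 UMI, 104 after thinning and 263 without the leading cell of each gene. Against 98 lower, there were 12 with 50 CPM added, 163 with 1 CPM, 19 with at least 50 UMIs and 508 with at least 1 UMI. For nonclassical over classical cells, 50 CPM gave 106 higher and 73 lower in db/db, and 173 higher and 109 lower in wt. The MHC class II median of 2.37 became 1.65 with equal weight per cell, 1.24 with at least 1 UMI, 1.50 without members over 2 times the median UMIs, 1.54 after thinning and 1.17 without the 10 deepest members. The medians of the glucocorticoid, interferon, identity and Fc receptor lists stayed between the medians of their genes' counting bounds in all 15 alternatives. Ccl5 changed sign, to 0.73 without platelet or NK barcodes and 0.34 without the leading cells. It was 0.78 without members with markers of other cells and 0.40 without the 10 deepest members. No wt UMI of Ccl5 remained in these settings, so they show no opposite direction. Of 795 values for named genes between genotypes, 747 stayed inside their intervals. Leaving out the leading cell, the members with markers of other cells and the 10 deepest members were alternatives chosen after seeing the data. Depth limits genes near 20 UMIs.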
